A study of Mus musculus with 8 samples.

Results

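The brush border is the carpet of microvilli on the luminal face of the kidney's proximal tubule, and 10 of the genes that build or equip it are described here. They are Ggt1, Dpep1, Anpep, Mep1a, Mep1b, Treh, Mme, Enpep and Dpp4, which encode enzymes anchored in that membrane, and Vil1, which encodes the actin-bundling protein villin and is not an enzyme. The genes were taken by name, and all 10 were found among the 49315 gene IDs of the count table. Messenger RNA was sequenced from frozen mouse kidneys, 4 labelled control and 4 labelled conditional knockout, and the series concerns the loss of Kdm1a, which encodes the histone demethylase LSD1. The protocol calls the controls wild type, and the labels name no strain, age, sex, Cre driver or deleted exon, so it is not known in which kidney cells the gene was deleted. The replicates are numbered kidneys, which the labels do not tie to separate animals, litters or batches, so p-values measure only the spread between these kidneys.

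Microvilli multiply the surface over which the proximal tubule takes solutes back from the filtrate. Peptidases on that surface cut filtered peptides and glutathione into single amino acids and dipeptides, which sodium- and proton-coupled carriers then bring into the cell. Actin bundles cross-linked by villin, with ezrin and PDZ-domain adaptors under the membrane, hold the microvilli and their enzymes in place. Several of these proteins are also made elsewhere: Anpep and Dpp4 on immune and stromal cells, Mme and Enpep in podocytes, pericytes and some stromal cells.

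The libraries held between 19524945 and 28544511 counts. Levels are given in CPM, counts per 1000000 counts of a library scaled by TMM, and adjusted p-values are those of edgeR's quasi-likelihood test over 18485 genes unless another test is named. Adjusted p under 0.05 is termed a call. Of all tested genes, 14.9% were called, made up of 8.27% called lower and 6.61% called higher in the knockouts. Of the calls, 44.4% were higher with TMM scaling and 57.2% with library totals alone. The targeted gene Kdm1a had 113 CPM ± 4.77 (SD, n = 4) in the controls and 93.6 CPM ± 1.88 (SD, n = 4) in the knockouts (log2 fold change −0.27, SE 0.05, adjusted p = 0.0194). All 4 knockouts lay below all 4 controls. The counts cover the whole gene, so they do not show what share of its transcripts lacks a deleted segment.

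Some libraries stood apart within their own group. On the first principal component, which held 62.7% of the variance, control 2 at 9.56 and knockout 3 at 9.71 lay together, between the other controls at −78.7 to −52.4 and the other knockouts at 48.3 to 68.4. Transcripts of 4 Y-linked genes were near 0 in control 2, knockout 1 and knockout 4, with a summed level of 0.760 to 2.63 CPM against 229 to 289 CPM in the other 5 libraries. The 12 adrenal gland markers summed to 2770 CPM in knockout 1, 383 CPM in knockout 4, 154 CPM in control 4 and 17.7 to 24.7 CPM in the rest. The 8 germ cell markers summed to 43.0 CPM in control 2 and to 1.52 to 3.38 CPM elsewhere. All 5 nephron progenitor markers were tested, and they summed to 303 to 471 CPM in controls and 265 to 399 CPM in knockouts.

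The promoters of Ggt1 and Treh are shown as examples that match the site of HNF4 alpha, a textbook regulator of proximal tubule genes. The gene for this transcription factor was called lower in the same libraries. Its part in the levels of the members was not tested. Hnf4a had 114.6 CPM ± 40.8 in controls and 23.9 CPM ± 14.1 in knockouts (SD, n = 4 each), or −2.26 on the log2 scale (SE 0.57, adjusted p = 0.0336); it is also among the proximal tubule markers used below. RefSeq promoters on GRCm38.p6, 250 bases before to 50 bases after a start site, were found for 9 of the 10 members, as 14 entries, and none was found for Mep1b. The HNF4 site CAAAGTCCA was searched on both strands with up to 1 mismatch. It was in 4 of the 14 entries, those of Ggt1, Mep1a and Treh, and in 8.47% of all 32851 promoters. Ggt1 entries 1 and 4 held a match, and Ggt1 entries 2 and 3 held none. The shares were not tested against each other. The windows below run 5′ to 3′ on the gene's strand, from 250 bases before to 20 bases after the start site, and capitals mark the matched letters.
Ggt1, first start site, chr10:75563882-75564151, plus strand, with an HNF4 match whose first base lies 41 bases before the start: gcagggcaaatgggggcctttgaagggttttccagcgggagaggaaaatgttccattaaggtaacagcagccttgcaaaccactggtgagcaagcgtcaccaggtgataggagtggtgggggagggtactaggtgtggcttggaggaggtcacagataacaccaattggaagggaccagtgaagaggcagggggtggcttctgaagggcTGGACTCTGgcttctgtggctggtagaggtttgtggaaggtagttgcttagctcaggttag
Treh, chr9:44672983-44673252, plus strand, with HNF4 matches 227 and 71 bases before the start: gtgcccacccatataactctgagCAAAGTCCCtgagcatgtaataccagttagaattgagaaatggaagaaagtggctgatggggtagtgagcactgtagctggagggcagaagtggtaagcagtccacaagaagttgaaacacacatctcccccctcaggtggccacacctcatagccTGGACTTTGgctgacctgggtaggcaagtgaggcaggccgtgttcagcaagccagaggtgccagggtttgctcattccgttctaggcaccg
A match is a string of letters and not a measured binding site. In the comparison below, Ggt1 was called lower and Treh did not pass the filter on low counts. Mep1a, with a match, and Anpep, Dpp4 and Vil1, with none, were also called lower.

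In the comparison of knockout with control, 6 of the 9 members that passed the filter on low counts were called lower and none higher. The 6 were Anpep, Dpp4, Mep1a, Mep1b, Ggt1 and Vil1, against a background of 8.27% of tested genes called lower. The log2 fold change was below 0 for all 9, with a median of −2.31 beside 0.0044 over all tested genes, and it ran from −5.16 for Mep1b to −0.39 for Dpep1. Treh did not pass the filter, and the level of Mep1b in the controls alone was enough for it to pass, so these counts are a description. The same 6 tested members had all 4 knockouts below all 4 controls, a pattern found in 9.58% of tested genes. In whole tissue, fewer proximal tubule cells and less RNA per cell cannot be told apart. Summed levels of the 15 proximal tubule markers moved with the members, at 642 to 2384 CPM in controls and 141 to 452 CPM in knockouts, and all 15 markers were called lower. The fall was not particular to this segment. Summed levels of the 4 thick ascending limb markers were 197 to 980 CPM in controls and 5.47 to 273 CPM in knockouts. Of these 4 markers, 3 were called lower and none higher.

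Of the 4 membrane peptidases that trim peptides from the end or cut within them, Anpep and Dpp4 were called lower, and Enpep and Mme narrowly missed the threshold. Anpep (ENSMUSG00000039062, chromosome 7, 79821803 to 79861059, minus strand, GRCm38) encodes aminopeptidase N, which removes neutral residues from the amino end of peptides. Its level was 214.7, 118, 255 and 498 CPM in controls 1 to 4 and 43.4, 45.9, 71.6 and 49.1 CPM in knockouts 1 to 4. The highest knockout lay below the lowest control, and controls spread 4.22-fold while knockouts spread 1.65-fold. Mean Anpep fell from 271 CPM ± 162 to 52.5 CPM ± 13.0 (SD, n = 4 each), to 19.3% of control, a log2 fold change of −2.37 ± 0.39 (SE) at an adjusted p of 0.0132. The call was kept in 7 of the 8 fits with 1 library left out, and the exception was without knockout 4, with an adjusted p of 0.0566.

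Dpp4 (ENSMUSG00000035000, chromosome 2, 62330073 to 62412231, minus strand) encodes dipeptidyl peptidase 4, which removes dipeptides ending in proline or alanine and inactivates incretin hormones. Its level was 114, 92.4, 132 and 202 CPM in controls 1 to 4 and 52.4, 42.9, 77.1 and 58.7 CPM in knockouts 1 to 4. The groups did not overlap, and control 4 alone stood well above the other controls. Mean Dpp4 fell from 135 CPM ± 47.6 to 57.8 CPM ± 14.4 (SD, n = 4 each), to 42.7% of control, a log2 fold change of −1.23 ± 0.25 (SE) at an adjusted p of 0.0207. An antisense gene, Gm13561, shares 232 exon bases with Dpp4 and had at most 32 counts in a library, against 854 to 4452 counts for Dpp4. The handling of strand in the counting is not given in the sources used here.

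Enpep (ENSMUSG00000028024, chromosome 3, 129269175 to 129332720, minus strand) encodes aminopeptidase A, which removes acidic residues and trims angiotensin II. Its level was 112, 79.2, 151 and 226 CPM in controls 1 to 4 and 65.3, 33.3, 89.7 and 60.0 CPM in knockouts 1 to 4. Knockout 3 lay above control 2, so the groups overlapped by that pair. Mean Enpep was 142 CPM ± 63.2 in controls and 62.0 CPM ± 23.1 in knockouts (SD, n = 4 each), with a log2 fold change of −1.19 (SE 0.36) that missed the threshold at an adjusted p of 0.0528.

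Mme (ENSMUSG00000027820, chromosome 3, 63241537 to 63386030, plus strand) encodes neprilysin, which cuts inside small peptides such as natriuretic peptides and enkephalins. Its level was 149.5, 134, 189 and 223 CPM in controls 1 to 4 and 116, 120.5, 138 and 118 CPM in knockouts 1 to 4. The knockouts lay within a 1.19-fold range, and knockout 3 lay above control 2. Mean Mme was 174 CPM ± 40.2 in controls and 123 CPM ± 10.1 in knockouts (SD, n = 4 each), a log2 fold change of −0.50 ± 0.15 (SE) at an adjusted p of 0.0546, so it missed the threshold.

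Both meprin subunits were among the most lowered members. Meprins are zinc proteases of the astacin family and are major proteins of the mouse kidney brush border; the beta subunit spans the membrane and holds the alpha subunit, which is otherwise shed. Mep1a (ENSMUSG00000023914, chromosome 17, 43474324 to 43502812, minus strand) encodes the alpha subunit. Its level was 179.1, 52.3, 161 and 320.0 CPM in controls 1 to 4 and 7.10, 2.71, 35.8 and 10.8 CPM in knockouts 1 to 4. Knockout 3 came nearest to the controls and stayed below control 2. Mean Mep1a fell from 178 CPM ± 109.9 to 14.1 CPM ± 14.8 (SD, n = 4 each), to 7.91% of control, a log2 fold change of −3.64 ± 0.79 (SE) at an adjusted p of 0.0230.

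Mep1b (ENSMUSG00000024313, chromosome 18, plus strand) encodes the beta subunit and had the lowest fold change of the 10 members. Its level was 32.6, 7.28, 28.8 and 73.4 CPM in controls 1 to 4 and 0.296, 0.301, 2.66 and 0.504 CPM in knockouts 1 to 4. The knockout values rest on 7, 6, 77 and 14 counts, and knockout 3 held most of them. Mean Mep1b fell from 35.5 CPM ± 27.6 to 0.941 CPM ± 1.15 (SD, n = 4 each), to 2.65% of control, a log2 fold change of −5.16 ± 0.87 (SE) at an adjusted p of 0.0139. The call was kept in 7 of the 8 fits with 1 library left out, and without knockout 4 the adjusted p was 0.0577. Per kilobase of exon, Mep1b stood at 27.5%, 21.0%, 27.0% and 34.6% of the Mep1a level in controls 1 to 4. In knockouts 1 to 4 it stood at 6.29%, 16.8%, 11.2% and 7.07%, below every control.

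Of the pair of enzymes that dismantle glutathione, Ggt1 was called lower and Dpep1 was not; the difference between them was not tested. Ggt1 (ENSMUSG00000006345, chromosome 10, 75561604 to 75586200, plus strand) encodes gamma-glutamyl transferase, which takes the glutamyl group off glutathione outside the cell. Its level was 196.7, 72.6, 183 and 349 CPM in controls 1 to 4 and 21.8, 6.78, 55.9 and 23.6 CPM in knockouts 1 to 4. No knockout reached the lowest control, and knockouts spread 8.25-fold among themselves. Mean Ggt1 fell from 200.4 CPM ± 114 to 27.0 CPM ± 20.7 (SD, n = 4 each), to 13.5% of control, a log2 fold change of −2.88 ± 0.63 (SE) at an adjusted p of 0.0238.

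Dpep1 (ENSMUSG00000019278, chromosome 8, 123186242 to 123201812, plus strand) encodes a lipid-anchored dipeptidase that splits cysteinylglycine, the product left by gamma-glutamyl transferase. Its level was 37.0, 15.7, 30.4 and 34.4 CPM in controls 1 to 4 and 23.9, 15.8, 22.2 and 27.8 CPM in knockouts 1 to 4. The 2 lowest values of the 8 were control 2 and knockout 2, and the groups overlapped. Mean Dpep1 was 29.4 CPM ± 9.50 in controls and 22.4 CPM ± 5.02 in knockouts (SD, n = 4 each), a log2 fold change of −0.39 ± 0.26 (SE) at an adjusted p of 0.310, which is no call.

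Treh (ENSMUSG00000032098, chromosome 9, 44673233 to 44686305, plus strand) encodes trehalase, a disaccharidase that splits the fungal and insect sugar trehalose. It was the scarcest member, with 14, 4, 25 and 32 counts in controls 1 to 4 and 0, 0, 3 and 5 counts in knockouts 1 to 4. The control 2 level of 0.185 CPM was hardly above the knockout 4 level of 0.180 CPM. Over each group, 75 counts stood against 8, which puts the knockouts at 9.86% of control after scaling, with a 95% exact interval of 4.11% to 20.5% for counting error only. With no filter on low counts, edgeR gave Treh a log2 fold change of −3.31 at an adjusted p of 0.0334.

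Vil1 (ENSMUSG00000026175, chromosome 1, 74409376 to 74435559, plus strand) is the member that gives the microvillus its shape rather than its chemistry. Its level was 26.0, 13.3, 22.6 and 34.9 CPM in controls 1 to 4 and 4.73, 1.15, 8.89 and 4.57 CPM in knockouts 1 to 4. The groups did not overlap, and the ends of the scale were control 4 and knockout 2. Mean Vil1 fell from 24.2 CPM ± 8.93 to 4.84 CPM ± 3.17 (SD, n = 4 each), a log2 fold change of −2.31 ± 0.50 (SE) at an adjusted p of 0.0238. It shares 49 exon bases with Usp37 on the other strand, and 2 exon bases are shared by Treh and Phldb1.

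**Figure D1:**
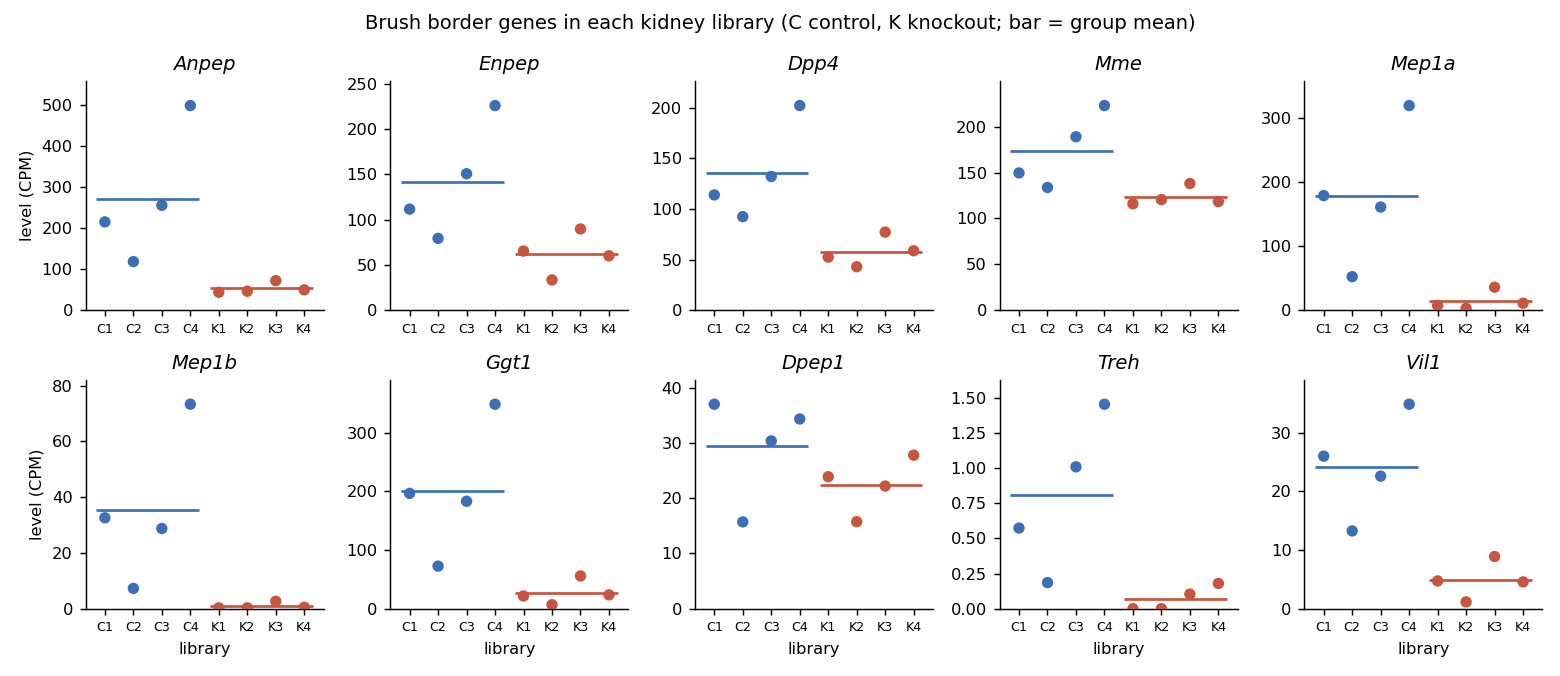
Level of each of the 10 genes in CPM on a linear axis from 0, with 1 point per library (C1 to C4 controls in blue, K1 to K4 knockouts in red) and a bar at the group mean. The knockout points lie below all control points for Anpep, Dpp4, Mep1a, Mep1b, Ggt1, Vil1 and, by a hair, Treh, while Enpep, Mme and Dpep1 overlap.

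The members shared an order of libraries. Control 2 was the lowest control for 10 of 10 members, beside 38.5% of all tested genes, and control 4 was the highest control for 9 of 10, beside 30.7%; the exception was Dpep1, highest in control 1. Among knockouts, knockout 3 was the highest for 8 members, beside 29.9% of all tested genes, and knockout 4 for Dpep1 and Treh. Knockout 2 was the lowest for 6, beside 28.2%, and knockout 1 for the others, with Treh at 0 counts in both. These are the libraries in which the proximal tubule markers also had their ends, with control 4 at 2384 CPM, control 2 at 642 CPM, knockout 3 at 452 CPM and knockout 2 at 141 CPM in sum. The thick ascending limb markers had their ends in the same libraries, at 980, 197, 273 and 5.47 CPM in that order. The number of members called depended on single libraries. It was 10 of 10 without control 2 and 0 of 10 without knockout 4, with 7084 and 153 genes called in all. Without any other single library it was 2, 2, 3, 2, 3 and 7 members for controls 1, 3 and 4 and knockouts 1, 2 and 3, while each member's fold change stayed below 0 in each of these fits that tested it. The calls of Ggt1 and Mep1a were kept only without control 2 and without knockout 3, that of Vil1 also without knockout 2, and that of Dpp4 also without control 4. Their highest adjusted p-values, all without knockout 4, were 0.0816 for Ggt1, 0.0812 for Mep1a, 0.0805 for Vil1 and 0.0720 for Dpp4.

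Splitting the libraries by Y-linked transcripts gave the same direction for 9 of 10 members. In the 5 libraries with these transcripts, 3 controls and 2 knockouts, every member was lower in both knockouts than in any of the 3 controls, from 3.301% of control for Mep1b to 69.1% for Mme; 27.6% of all tested genes had this pattern. In the 3 libraries without them, control 2 against knockouts 1 and 4, the members other than Dpep1 were also lower, from 5.49% for Mep1b to 87.6% for Mme, beside 38.6% of all tested genes. Dpep1 was 15.7 CPM in control 2 and 25.9 CPM on average in knockouts 1 and 4, or 164% of that control. The same 2 knockouts hold the adrenal marker signal and the lone control holds the germ cell marker signal, and with 1 control these cannot be told apart.

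Setting every enzyme against Vil1 within the same library removed the scaling between libraries. The log2 ratio of CPM (prior count 2) was compared between groups by permuting the genotypes over all 70 assignments, an exact two-sided test whose smallest p is 0.0286, with adjustment over the 9 enzymes. The ratios of Dpep1, Mme, Enpep and Dpp4 to Vil1 were higher in 4 of 4 knockouts than in any control, as were those of 90.3% of all tested genes, so this is no result about these members. The difference of the mean log2 ratios was 2.18 for Dpep1, 2.06 for Mme, 1.36 for Enpep and 1.33 for Dpp4, each at the smallest exact p and an adjusted p of 0.0514. The ratio of Mep1b to Vil1 was lower in 4 of 4 knockouts than in any control, with a difference of −2.73 (exact p = 0.0286, adjusted p = 0.0514), a pattern found in 0.281% of tested genes. No ratio passed 0.05 after adjustment, which with 5 ratios at the smallest p could not go below 0.0514. Mep1a at −1.45 (adjusted exact p = 0.0857) and Ggt1 at −0.51 (adjusted exact p = 0.110) lay on the lower side with overlap, and for Anpep at 0.32 and Treh at 0.08 the adjusted exact p-values were both 0.8286. Without knockout 2 the Anpep difference was −0.19 against Vil1, and against the proximal tubule genes described next it was 0.61 in place of 1.10.

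The same test against the mean log2 CPM of 5 proximal tubule genes, Lrp2, Cubn, Slc34a1, Slc22a6 and Slc5a2, set the members beside textbook genes of the proximal tubule. Relative to these, 5 members were higher in 4 of 4 knockouts than in any control, by 2.96 for Dpep1, 2.84 for Mme, 2.14 for Enpep, 2.11 for Dpp4 and 0.78 for Vil1 on the log2 scale. Mep1b alone was lower in 4 of 4, by −1.96. These 6 differences had an exact p of 0.0286 and an adjusted exact p of 0.0476 over the 10 members. The adjusted value lies under 0.05 only because 6 of the 10 ratios tie at the smallest p. As 5 of these 6 are the higher ratios, the adjusted p is no support for the difference of Mep1b. The reference genes themselves had a median log2 fold change of −3.04, and 93.4% of all tested genes had a ratio to them that was higher in every knockout than in any control, so the 5 higher ratios are no result about these members. A ratio lower in every knockout, as for Mep1b, was found in 0.146% of tested genes. With all 15 proximal tubule markers as the reference, the difference of Vil1 was 0.66 at an exact p of 0.0571, with overlap, and that of Anpep was 0.98 at an exact p of 0.0286, without overlap. Anpep at 1.10, Ggt1 at 0.26, Mep1a at −0.67 and Treh at 0.86 did not pass, with adjusted exact p-values of 0.107, 0.127, 0.107 and 0.20. Leaving out any 1 library moved Mep1b between −2.21 and −1.68 and Dpep1 between 2.58 and 3.42, but 3 against 4 libraries cannot give an exact p below 0.0571.

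**Figure D2:**
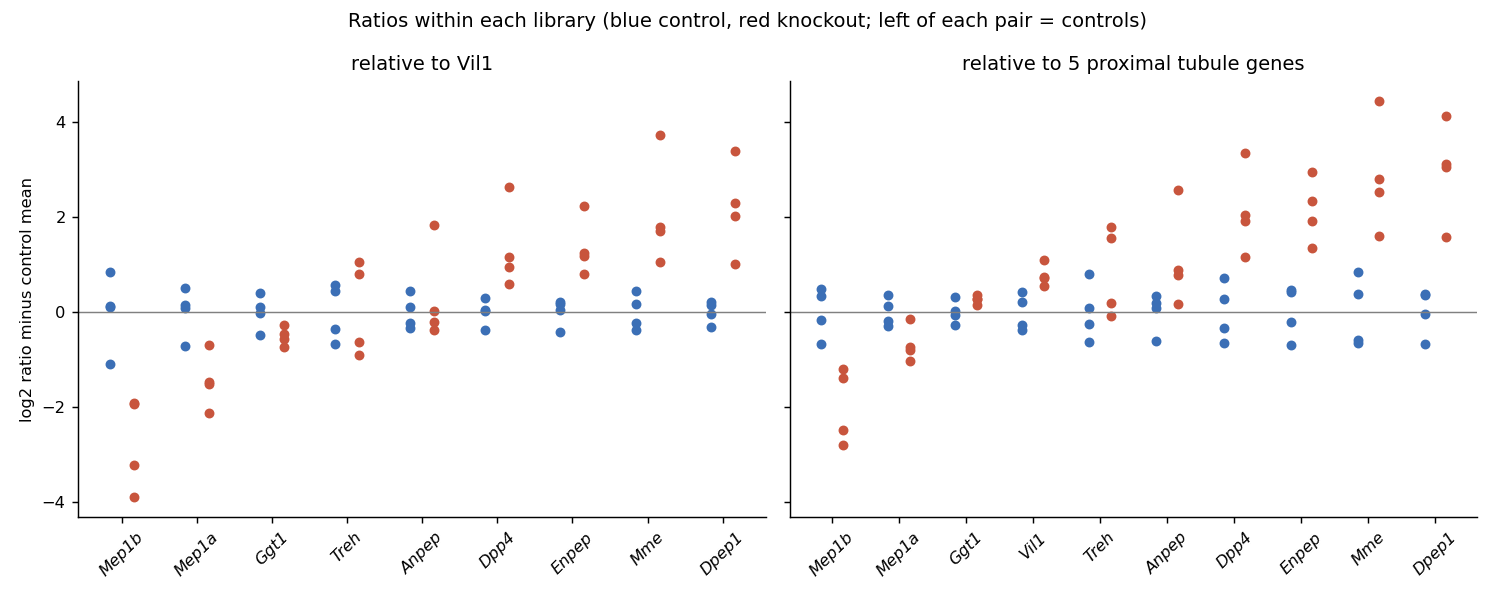
Log2 ratio of each member to Vil1 (left) and to 5 proximal tubule genes (right) in each library, minus the mean of the controls, with controls in blue and knockouts in red. Knockout points for Dpep1, Mme, Enpep and Dpp4 lie above every control in both panels, those for Mep1b lie below every control in both, and Ggt1 stays near the proximal tubule genes.

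Per length, the 10 transcripts had another make-up in the knockouts, given here as a description. RPKM, CPM divided by exon length in kilobases, summed over the 10 genes to 253, 121, 263 and 471 in controls 1 to 4 and 62.2, 44.96, 99.95 and 67.0 in knockouts 1 to 4. In controls the order of mean RPKM was Anpep at 65.7, Ggt1 at 58.7, Mep1a at 51.6, Enpep at 30.2, Dpp4 at 21.4, Mep1b at 15.5, Mme at 15.1, Dpep1 at 11.8, Vil1 at 6.81 and Treh at 0.393. In knockouts it was Enpep at 13.2, Anpep at 12.7, Mme at 10.7, Dpp4 at 9.14, Dpep1 at 9.02, Ggt1 at 7.91, Mep1a at 4.08, Vil1 at 1.36, Mep1b at 0.412 and Treh at 0.0346. Ranges of neighbours in either order overlapped across libraries, except that Treh lay below Vil1 in all controls and below Mep1b in all knockouts. Within each library, more neighbours kept their order. In every control Ggt1 lay above Mep1a, Enpep above Dpp4 and Dpep1 above Vil1. In every knockout Anpep lay above Mme, Ggt1 above Mep1a, Mep1a above Vil1 and Vil1 above Mep1b. Ggt1 held 20.6% ± 2.27 of the summed RPKM in controls and 10.3% ± 4.89 in knockouts, and Mep1a held 17.6% ± 3.61 and 5.02% ± 3.76 (SD, n = 4 each). Anpep held 23.3% ± 2.07 and 19.2% ± 3.701, while Mme held 6.25% ± 2.36 and 16.7% ± 4.73 and Dpep1 held 4.67% ± 1.26 and 13.8% ± 3.41 (SD, n = 4 each). Shares of 1 sum depend on each other and were not tested. Mme, Dpep1, Enpep and Dpp4 had a larger share in every knockout than in any control, and Ggt1, Mep1a and Mep1b a smaller one. A gene that falls less than the sum gains share. Relative to Vil1, 90.3% of all tested genes were higher in every knockout than in any control. The larger shares are therefore no result about these members, and the smaller ones were not set against other genes.

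**Figure D3:**
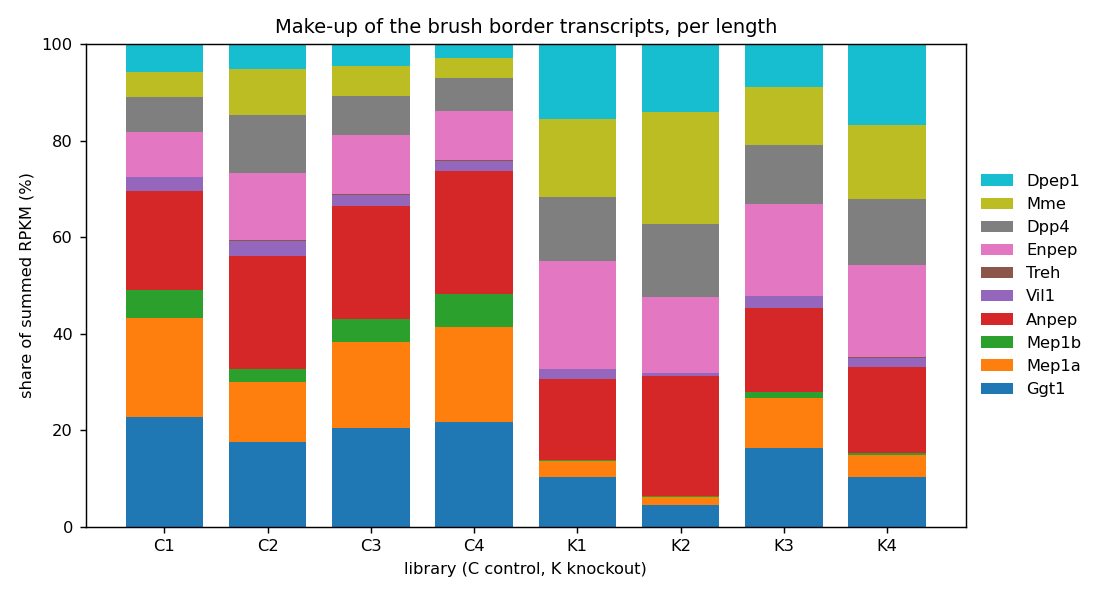
Share of each gene in the summed RPKM of the 10 genes, in percent, for each control (C1 to C4) and knockout (K1 to K4) library; the segments of a bar add to 100%. Ggt1, Mep1a and Mep1b take the lower part of the control bars and a smaller part of every knockout bar, where Mme, Enpep, Dpp4 and Dpep1 take more.

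Other surface proteins of the same membrane were split. Of 12 further brush border genes, all for ectoenzymes except Cltrn, 11 were tested. Among the 11, 5 were called lower and 1 higher, beside 8.27% and 6.61% of all tested genes. Their median log2 fold change was −0.88. Cltrn, the collectrin that chaperones amino acid carriers, fell from 92.0 CPM ± 39.2 to 9.85 CPM ± 8.20 (log2 −3.21, SE 0.55, adjusted p = 0.0144). Car4, the membrane-anchored carbonic anhydrase of bicarbonate recovery, fell from 38.2 CPM ± 16.5 to 7.09 CPM ± 3.87 (log2 −2.41, SE 0.46, adjusted p = 0.0182). Ace, which makes angiotensin II, fell from 59.6 CPM ± 35.5 to 10.9 CPM ± 7.27 (log2 −2.44, SE 0.56, adjusted p = 0.0264). Cpm, carboxypeptidase M, rose from 57.5 CPM ± 8.84 to 82.2 CPM ± 10.1 (log2 0.52, SE 0.13, adjusted p = 0.0331; SD, n = 4 each). The count called lower was 0 without knockout 4 and 7 without control 2.

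The microvillus scaffold around villin was lower in most of its members. Of 14 scaffold genes, all tested, 12 were called lower, beside 8.27% of all tested genes, and none higher. Their median log2 fold change was −0.92. Slc9a3r1, the PDZ adaptor NHERF1 that ties carriers to ezrin, fell from 117 CPM ± 22.5 to 67.0 CPM ± 8.37 (log2 −0.80, SE 0.14, adjusted p = 0.0154). Myo7b fell to 1.92 CPM ± 0.674 from 7.09 CPM ± 2.68 (log2 −1.87, adjusted p = 0.0159), and Cdhr2, a cadherin of the links between microvillus tips, to 2.24 CPM ± 1.30 from 17.8 CPM ± 10.1 (log2 −2.97, adjusted p = 0.0159). The other 2 were Myo1a, at 0.08, and Baiap2l1, at 0.10 on the log2 scale, with adjusted p-values of 0.898 and 0.545. The count called lower depended on single libraries: it was 0 without knockout 4, 1 without control 3, 2 without knockout 1, 4 without control 1 or control 4, 5 without knockout 2 and 12 without control 2 or knockout 3. It was 7 with the adrenal markers as a covariate.

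Most carriers that take up what the enzymes release were lower. Of 10 such genes, all tested, 7 were called lower, beside 8.27% of all tested genes, and none higher. Their median log2 fold change was −2.53. Slc3a1, part of the cystine and dibasic amino acid carrier, fell from 47.6 CPM ± 33.5 to 2.53 CPM ± 1.51 (log2 −4.20, SE 0.68, adjusted p = 0.0130). Slc1a1, the carrier of acidic amino acids, fell from 14.7 CPM ± 5.68 to 2.36 CPM ± 1.39 (log2 −2.62, SE 0.42, adjusted p = 0.0130). Slc6a19, the carrier of neutral amino acids, fell from 8.47 CPM ± 4.01 to 1.24 CPM ± 0.670 (log2 −2.75, SE 0.49, adjusted p = 0.0159). The peptide carrier Slc15a2 was 31.7 CPM ± 12.1 and 29.8 CPM ± 7.14, and Slc36a2 was 0.608 CPM ± 0.347 and 1.06 CPM ± 0.393, with adjusted p-values of 0.832 and 0.255. The count called lower was 0 without knockout 4, 3 without control 3 or knockout 1 and 4 without control 1, and 6 or 7 without any other single library.

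Most relatives of the members from the same protein families, many of them not brush border genes, were not called. Of 26 relatives, 23 were tested: none was called lower, 5 were called higher and 18 were not called. Over all tested genes, 8.27% were called lower and 6.61% higher. The median log2 fold change of the relatives was 0.30, and 9 of the 23 lay below 0. Relatives called lower numbered 4 without control 2, 4 with limma-voom, 2 without knockout 3 and 2 with the replicate block. Svil, supervillin, rose from 68.7 CPM ± 6.40 to 94.1 CPM ± 4.54 (log2 0.45, SE 0.08, adjusted p = 0.0144), and Bmp1, an astacin protease that processes collagen, from 139 CPM ± 12.2 to 186 CPM ± 15.2 (log2 0.43, adjusted p = 0.0189). Ggt7 rose from 3.25 CPM ± 0.793 to 6.46 CPM ± 1.16 (log2 0.99, adjusted p = 0.0233), while Ggt6, with a log2 fold change of −2.11, had an adjusted p of 0.0578. The other 2 called were Dpp10 and Gsn, at 1.11 and 0.43 on the log2 scale. Among 9 regulators, 8 were tested and 4 called lower, beside 8.27% of all tested genes. The 4 included Hnf4a, the bile acid receptor gene Nr1h4 (log2 −2.18, adjusted p = 0.0408) and the fatty acid sensor gene Ppara (log2 −1.49, adjusted p = 0.0473). Foxa3, at 0.90 on the log2 scale, lay on the other side and was not called. The count of regulators called lower was 0 without knockout 4, control 1 or control 3, and 5 without control 2 or knockout 3.

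**Figure D4:**
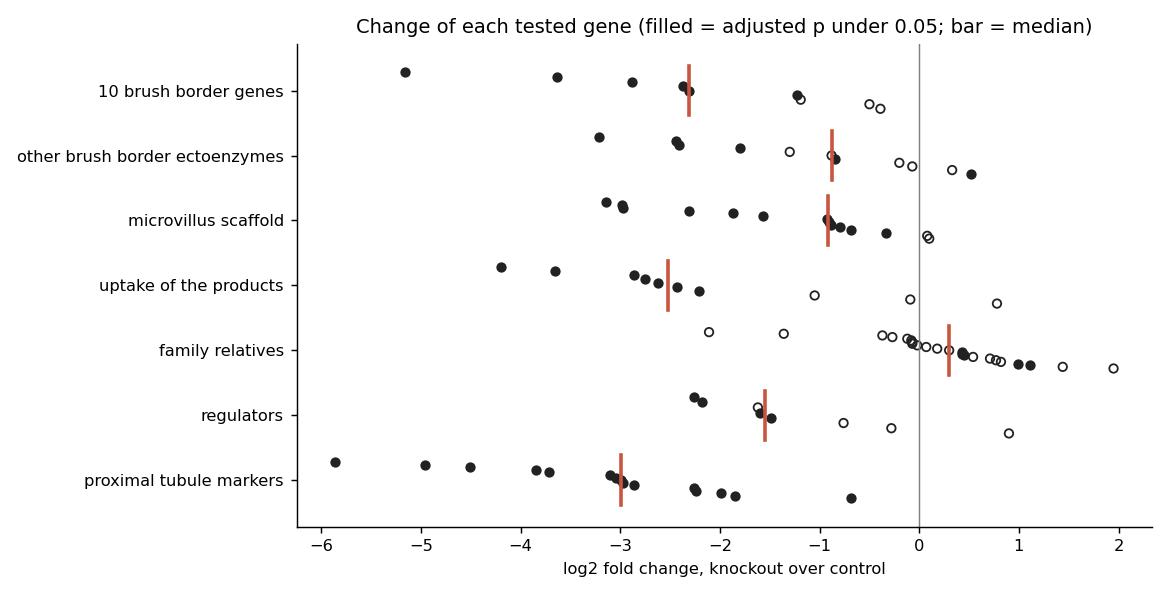
Log2 fold change, knockout over control, of every tested gene of the 10 brush border genes, 5 comparison lists and the proximal tubule markers; filled points have an adjusted p under 0.05 and red bars mark list medians. The 9 tested members of the 10 genes have their median at −2.31 and the proximal tubule markers at −2.99, while the family relatives have theirs at 0.30.

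Because several members are also made outside the proximal tubule, markers of those cells were read in the same libraries. Over all tested genes, 8.27% were called lower and 6.61% higher. Of 5 podocyte markers, Nphs1 and Podxl were called lower, and the summed level was 378 to 559 CPM in controls and 279 to 340 CPM in knockouts, without overlap. Of 5 mesangium and pericyte markers none was called, with sums of 380 to 839 CPM and 381 to 475 CPM. Of 5 fibroblast markers only Pdgfra was called, as higher, with sums of 1838 to 2609 CPM and 2093 to 3708 CPM. Of 7 leukocyte markers, 5 tested, Ptprc was called higher, with sums of 54.5 to 69.0 CPM and 73.3 to 78.4 CPM. Of 5 endothelial markers Emcn was called lower, with sums of 353 to 493 CPM and 250 to 397 CPM. None of these lists had a marker at 0 in all 8 libraries, and the part of these cells in the levels of Mme, Enpep, Anpep and Dpp4 was not tested.

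The 5 protein-coding genes whose profile over the 8 libraries was nearest to the mean profile of the tested members were Acaa1b, Slc5a1, Susd3, Lrp2 and Iyd. Likeness was the root mean square distance of centred log2 CPM, and it was 0.131, 0.144, 0.172, 0.182 and 0.190 for these genes, beside a median of 1.29 over 14398 genes ranked. Among the members, Anpep at 0.322 and Vil1 at 0.386 lay nearest to that mean and Mep1b at 1.63 lay farthest. Lrp2, the gene for the endocytic receptor megalin, had 242 CPM ± 104 in controls and 51.3 CPM ± 28.01 in knockouts (SD, n = 4 each), or −2.24 on the log2 scale (SE 0.46, adjusted p = 0.0205). Slc5a1 is also among the carriers above and Lrp2 among the reference genes. The distance uses the same 8 libraries as the comparison and carries no test.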

How the data were processed

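Polyadenylated RNA of 8 mouse kidneys, 4 control and 4 knockout, was sequenced. The deposited values are raw whole-number read counts, 1 per gene, with exon coordinates and lengths, per the file headers. Trimmomatic 0.36, STAR 2.5.2b, featureCounts of Subread 1.5.2, DESeq2 and GRCm38 are named in the submitters' processing notes, and the handling of strand and of reads matching several genes is not given in the sources used here. The series table and the library tables differed in 0 cells. Symbols came from GENCODE M21, which matched 48970 of 49315 IDs and gave the same start and end for 91.4% of them, including every member except Mep1b.

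The groups were taken from the labels. Counts were scaled by TMM, filtered with filterByExpr at its defaults (18485 genes kept) and tested by quasi-likelihood in edgeR 4.0.16 (R 4.3.3) without covariates, with Benjamini-Hochberg adjustment over all genes tested. RPKM used the deposited exon lengths and TMM library sizes. Ratios within a library used log2 CPM with a prior count of 2 and exact permutation tests. One count stood for 0.0350 to 0.0512 CPM of an unscaled library. The edgeR comparison was also run on simulated data of 18485 genes with 200 changed. There it called at least 92.5% of the genes of each fold size and 13 of the 18285 unchanged. The simulation gave all genes the same dispersion, only large changes and no library standing apart. Its rates therefore cannot be taken as those of the kidney data. Alternatives were library totals, DESeq2 size factors, DESeq2 1.42.0, limma-voom 3.58.1 with sample weights, other filters, a replicate block, covariates for Y-linked and adrenal transcripts, a prior count of 0.5, the full proximal tubule list as reference, and libraries left out. The genes named are all 10 members, up to 3 called genes with the smallest adjusted p per comparison list, list genes moving against their list, and the 5 nearest profiles. A few more list genes were named after their values were seen, and a gene that the rule picks, and motif patterns searched beside the HNF4 site, are not reported here. The members, lists, motifs and tests were chosen with earlier results of these data known. Among the marker lists whose calls are not given with the results, genes called lower numbered 1 of 4 for the distal convoluted tubule and 3 of 5 for nephron progenitors. They numbered 0 of 4 each for principal cells, intercalated cells, intestine and Y-linked genes. No gene of these lists was called higher. The shares over all tested genes were 8.27% called lower and 6.61% called higher. None of the adrenal and germ cell markers was called.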

Additional observations from a re-analysis of the deposited data

Results flagged for a closer look

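Mep1b stood at 2.66 CPM in knockout 3, far from 0.296, 0.301 and 0.504 CPM in knockouts 1, 2 and 4. On the CPM scale, the gap to the nearest took 0.912 of the range of the group, above Dixon's critical value for 4 samples. On a log2 scale the gap would be a smaller part of the range. The values of knockouts 1, 2 and 4 rest on 7, 6 and 14 counts. The 20 groups formed by 10 genes and 2 genotypes were examined, and chance flags about 1 in 20. Knockout 3 was also the highest knockout for 8 of the 10 genes, and its summed proximal tubule markers were 452 CPM beside 141 to 270.3 CPM in the other knockouts. The part of that difference in the Mep1b value was not tested.

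Dpep1 in the 3 libraries without Y-linked transcripts was 164% of control, while in the 5 libraries with them it was 56.0% of control, so that the values lay on opposite sides. An interaction test in edgeR, prompted by these values and with a single control in 1 arm, gave an adjusted p of 0.135 and so no call, and it is no evidence for a difference. The value of 164% rests on control 2 alone as its control, at 15.7 CPM, which was also the lowest control for the other 9 genes. The adrenal markers summed to 2770 CPM and 383 CPM in the 2 knockouts of that split, and their part in the Dpep1 value was not tested.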

How the results depend on the processing

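The main count was 6 members and 2751 genes called, and at least 1 of the 2 numbers moved by more than 1.5 times under the settings that follow, except where marked. DESeq2 called 4494 genes and limma-voom with sample weights 8302, with 9 and 8 members, and the adrenal covariate left 1195 genes and 5 members, Vil1 missing the threshold at an adjusted p of 0.0512 with a log2 fold change of −2.37. Leaving out 1 library gave 153 to 7084 genes and 0 to 10 members. Among these fits, the one without knockout 3 gave 3192 genes and 7 members, a smaller move. With control 2 and knockout 3 both left out, 7903 genes and 10 members were called. Of the settings chosen after the data were seen, leaving out knockouts 1 and 4 together gave 1 gene and 0 members called (3504 genes at an unadjusted p under 0.05), and keeping only the 5 libraries with Y-linked transcripts gave 3163 genes and 5 members, a smaller move. Without knockout 4, where 0 members were called, 5035 genes had an unadjusted p under 0.05. The cause of these moves was not tested.

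The fold change of each member was below 0 in every fit that tested it. The replicate numbers are shared by the groups. Same-numbered libraries had correlations of −0.108, 0.329, 0.228 and −0.059 between their deviations from the group means. Controls 2 and 3 were most like the knockout of their own number, and controls 1 and 4 were not. These correlations carry no test, so it is not known whether the numbers pair the samples. With the replicate block 3229 genes and 8 members were called. With no filter the count of members called was 9, Treh included. With a prior count of 0.5, Treh moved to −0.97 against Vil1 and to −0.17 against the proximal tubule genes. Depth limits Treh, with 0 to 5 counts per knockout, and Mep1b in knockouts 1, 2 and 4.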
